A study of Mus musculus with 16 samples.

Results

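Lamp5 interneuron nuclei of the mouse hippocampus were taken as nuclei with 3 or more UMIs (unique molecular identifiers, each standing for 1 captured RNA molecule) of Gad1 and Gad2 together, 2 or more of Lamp5, at most 2 of Sst, and at most 1 each of Pvalb, Vip and Slc17a7. Only barcodes with 500 or more UMIs, 300 or more genes and at most 5% mitochondrial UMIs were read as nuclei. The rule kept 687 nuclei of 147873, or of the 7949 GABAergic nuclei (Gad1 and Gad2 of 3 or more, Slc17a7 of at most 1). The nuclei were thus chosen by the counts of these 7 genes, so their levels are a description and no finding.

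Lamp5 marks neurogliaform cells and the related ivy cells, GABAergic interneurons with dense, compact axons that release GABA diffusely around them and so act on synaptic and extrasynaptic GABA-A and GABA-B receptors of whole neighbourhoods of dendrites. In the hippocampus neurogliaform cells lie mainly in stratum lacunosum-moleculare and commonly make reelin (Reln), whereas ivy cells are known for neuronal nitric oxide synthase (Nos1) and neuropeptide Y (Npy). Lamp5 cells come from both embryonic sources of hippocampal interneurons: the caudal ganglionic eminence, whose progeny keep Adarb2 and Prox1, and the medial ganglionic eminence, whose progeny keep Lhx6.

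The study profiled hippocampal nuclear RNA by droplet single-nucleus sequencing in 16 libraries from female mice aged 9 months. Mice were Ch25h+/+ or Ch25h-/-, and within either genotype Tau+ or Tau-, which gives 4 groups with 4 libraries each. Ch25h encodes cholesterol 25-hydroxylase, an interferon-induced enzyme that makes 25-hydroxycholesterol. Tau+ and Tau- are copied from the labels, which name neither the tau line nor the promoter that drives it. The labels do not state that each library is a separate mouse, so p-values measure the spread between libraries.

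Libraries held 8130 to 11654 nuclei and 51270831 to 84870650 UMIs, with a median of 3846 to 6508 UMIs per nucleus. Each gave 32 to 61 Lamp5 nuclei, whose median depth was 6936 to 11659 UMIs and whose summed counts were 281075 to 635747 UMIs per library. No barcode was a Lamp5 nucleus in more than 1 library, and 24 of the 687 (3.49%) were also barcodes of another nucleus elsewhere, against 3.68% of all nuclei. By the highest Scrublet scores 58 Lamp5 nuclei (8.44%, 2 to 19.5% per library) were marked as doublets, which were kept. The number marked was preset at 0.8% per 1000 nuclei of a library, which gave 6.67 to 9.34% of all nuclei per library. Across Lamp5 sums the first component of the deviations from group means, with 16.3% of the variance, separated replicates 1 and 2 from replicates 3 and 4 in every group. The labels give no batch for this split, and each group has 2 libraries on either side.

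The number of nuclei fell steadily from 1 to 3 Lamp5 UMIs, with no break at the threshold. With the other limits met, 625 nuclei had 1 Lamp5 UMI and stayed outside, 331 entered with 2, 172 with 3 and 184 with 4 or more. The GABAergic limit cut less close, with 24 nuclei just outside at 2 Gad1 and Gad2 UMIs, 30 at 3 and 657 at 4 or more. Defining genes of the neurogliaform label that the rule did not read were present. Reln had a UMI in 65.9% of Lamp5 nuclei against 1.12% of oligodendrocyte nuclei, a type that should lack it and was shallower (library medians of 1402.5 to 2153.5 UMIs). Ndnf, which encodes a secreted protein of superficial and neurogliaform interneurons, had one in 28.97% against 1.02%, and both Reln and Ndnf had one in 179 nuclei (26.1%, 95% exact binomial interval 22.8 to 29.5%, which pools nuclei over libraries and covers counting error only). Per library the count ran from 8 to 17 nuclei, and the share from 8 of 51 to 14 of 39 nuclei. Npy was seen in 33.04% against 0.686%, Nos1 in 52.1% against 0.671%, and Id2, an inhibitor of helix-loop-helix factors, in 42.5% against 1.23%. Cplx3, a complexin also used as a neurogliaform marker, was sparse at 9.02% against 0.0901%.

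Markers of other cell types were summed in the Lamp5 counts, which are given here as CPM (counts per 1e6 UMIs of the sum). The 8 oligodendrocyte markers together reached 37.5 to 469 CPM per library, against 14450 to 18032 in oligodendrocyte and 175 to 261 in excitatory nuclei. The 10 excitatory markers reached 164 to 440 CPM, against 145 to 438 in oligodendrocyte and 1267 to 1636 in excitatory nuclei. The 8 astrocyte markers reached 69.6 to 335 CPM, against 321 to 659 in oligodendrocyte and 248 to 339 in excitatory nuclei. The 8 microglia markers reached 80.8 to 172 CPM, against 72.5 to 194 and 89.1 to 133 in the same order. The 7 endothelial and mural markers reached 0 to 32.9 CPM, against 7.87 to 27.2 and 5.36 to 10.4. The 6 oligodendrocyte precursor markers, which include Vcan and Cspg5, reached 159 to 398 CPM against 117 to 248 in oligodendrocyte and 29.0 to 56.3 in excitatory nuclei. Of the 7 Cajal-Retzius markers, which belong to another Reln-rich hippocampal neuron, Lhx1 and Barhl2 were at 0 and all together reached 9.22 to 94.0 CPM, against 5.95 to 22.8 in oligodendrocyte and 11.7 to 24.2 in excitatory nuclei. The 1 of them with enough counts to test, Cacna2d2, had log2 fold changes of -1.92, -3.02 and 1.01 against the Sst, Pvalb and Vip nuclei described next.

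Lamp5 nuclei were compared with 3 other interneuron types from the same libraries, gated in the same way on 3 or more UMIs of Sst, Pvalb or Vip. There were 1209 Sst nuclei (55 to 114 per library, median depth 7348 to 12917 UMIs), 136 Pvalb nuclei (1 to 23 per library, 11314 to 18970 UMIs) and 316 Vip nuclei (10 to 30 per library, 5016 to 8671 UMIs). Counts were summed per library and type and fitted with edgeR with library as a term, over 5903 genes, leaving out the 7 genes of the gates. At a Benjamini-Hochberg adjusted p under 0.05, 40.3% of genes differed from Sst nuclei (1143 higher, 19.4%, and 1234 lower, 20.9%, in Lamp5 nuclei), 42.8% from Pvalb nuclei (1335 and 1192, or 22.6% and 20.2%) and 31.3% from Vip nuclei (950 and 898, or 16.1% and 15.2%). These shares are the background for every count below. In all 3 comparisons 370 genes were higher (6.27%) and 214 lower (3.63%).

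Of 18 listed neurogliaform and ivy markers 14 had enough counts to be tested. Against Sst nuclei 13 were higher and Npy was lower, against Pvalb nuclei 13 were higher and Eya4 did not pass, and against Vip nuclei 13 were higher and Cck was lower. The calls of Eya4 against Sst and Nos1 against Vip nuclei were lost under other settings. The 14 markers had median log2 fold changes of 3.93, 4.16 and 3.61, beside -0.01, 0.03 and 0.01 over all genes tested. A gene could pass the count filter through Lamp5 nuclei alone, and could then only come out higher there. The list was also chosen with earlier results of these data known, so these counts and medians are a description. The medians were the same with genes at 0 in another type set at their bound.

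Reln, the secreted glycoprotein that signals through lipoprotein receptors, ranged from 506 to 1423 CPM in Lamp5 sums, with a median of 1016. It ranged from 439 to 844 in Sst nuclei, so those groups overlapped, and reached at most 42.3 in Pvalb and 172 in Vip nuclei. The log2 fold changes were 0.62 (SE 0.14), 6.32 (SE 0.29) and 4.01 (SE 0.21) against Sst, Pvalb and Vip nuclei, and Reln was higher in 13 of 16 libraries against Sst. Ndnf separated more sharply, at 44.2 to 195 CPM (median 119.7) against at most 17.4 in Sst nuclei, a log2 fold change of 3.82 (SE 0.19). Ndnf had no UMI in 136 Pvalb nuclei, which allows a share of nuclei with a UMI of up to 2.21%, not a share of nuclei that express it, and makes the level at least 78.7-fold higher in Lamp5 nuclei (floor of 3 counts over the group). It had 1 UMI in Vip nuclei, a ratio of 281 with a counting interval of 50.3 to 11104.

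Npy and Nos1, the peptide and the gas-producing enzyme of ivy cells, were shared with other types. Npy was 74.4 ± 35.8 CPM (mean ± SD, n = 16 libraries) in Lamp5 and 143 ± 50.98 in Sst nuclei, a log2 fold change of -0.91 (SE 0.13) with Lamp5 nuclei lower in 15 of 16 libraries, but it was 7.67 ± 13.1 in Pvalb (n = 13 libraries with 5 or more nuclei) and 4.77 ± 5.51 in Vip nuclei. Nos1 was 111 ± 24.6 CPM in Lamp5 nuclei, against 30.4 ± 21.2, 10.2 ± 12.7 and 73.1 ± 45.8 in Sst, Pvalb and Vip nuclei. Its log2 fold changes were 1.99, 3.38 and 0.78, all past the threshold here. Cck, the peptide of basket cells that overlap with Vip cells, was 43.9 ± 28.7 CPM in Lamp5 and 235 ± 211 in Vip nuclei.

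Channel, vesicle and signalling genes of the list followed. Cacna2d1, the alpha2-delta-1 subunit of voltage-gated calcium channels, ranged from 1328 to 2443 CPM (median 1952) in Lamp5 nuclei. Its highest library was 89.2 in Sst, 119 in Pvalb and 399 in Vip nuclei, so no library of another type reached the lowest Lamp5 library. The log2 fold changes were 5.67 (SE 0.18), 6.62 (SE 0.26) and 3.05 (SE 0.17). Sv2c, a synaptic vesicle glycoprotein, was 213 ± 56.8 CPM against 11.9 ± 9.08 in Sst and 3.70 ± 8.93 in Pvalb nuclei, and had 2 UMIs in Vip nuclei, a ratio of 243 (67.2 to 2011). Fgf13, an intracellular partner of sodium channels, was 2999 ± 484 CPM against 189 ± 48.02, 561 ± 282 and 581 ± 136, with no overlap between libraries. Pde11a, a cyclic nucleotide phosphodiesterase, was 7.38 (SE 0.31) above Sst nuclei on the log2 scale but only 1.51 (SE 0.24) above Pvalb nuclei. Kit, a receptor tyrosine kinase, was 5.51 (SE 0.16) above Sst and 1.04 (SE 0.14) above Vip nuclei.

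Genes higher in all 3 comparisons were ranked by their smallest difference, given a mean of 10 or more UMIs per library in Lamp5 nuclei. The 12 with the largest were Gm3510, Sv2c, Vcan, Ndnf, Hapln1, Prlr, Id2, Dchs2, Cpne8, Myo3b, Cacna2d1 and Trpc5. They were picked for a large difference, so a lack of overlap between types is a description and adds no support. Hapln1, a link protein of the perineuronal matrix, was 265 ± 54.3 CPM in Lamp5 nuclei, and its log2 fold changes were 4.53 (SE 0.12), 3.76 (SE 0.19) and 5.17 (SE 0.22). Vcan, the matrix proteoglycan versican that Hapln1 binds, was 205 ± 60.5 CPM and was higher by 4.13, 5.71 and 4.71. Vcan also marks oligodendrocyte precursors, of whose other listed markers Pdgfra was at 0.832, Cspg4 at 0.216, Olig1 at 1.19 and Olig2 at 0.490 CPM in Lamp5 nuclei. The remaining one, Cspg5, was 58.03 ± 15.3 CPM in Lamp5 nuclei, with log2 fold changes of -0.33, 0.08 and -0.51, the second not past the threshold and the third lost under other settings. Hapln1 and Vcan lie side by side on chromosome 13 (GRCm38, 89539796 to 89611652 on the plus strand and 89655312 to 89742509 on the minus strand).

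Trpc5, a calcium-permeable cation channel, was 653 ± 140.5 CPM in Lamp5 nuclei against 106 ± 33.9, 8.05 ± 16.2 and 80.6 ± 31.6 in Sst, Pvalb and Vip nuclei, with no overlap between libraries. Id2 was 70.6 ± 21.7 CPM against 2.07 ± 1.29, 1.54 ± 3.84 and 7.08 ± 9.98, again with no overlap, and its 3 UMIs in Pvalb nuclei gave a ratio of 47.5 (16.2 to 231). Prlr, the prolactin receptor, had 3.54 (SE 0.20) against Sst and 4.18 (SE 0.37) against Vip nuclei on the log2 scale and no UMI in Pvalb nuclei, at least 56.0-fold higher. Dchs2, a giant cadherin, was higher by 3.90, 6.15 and 3.16, Cpne8, a calcium-dependent membrane-binding protein, by 3.15, 4.62 and 3.99, and Myo3b, an unconventional myosin, by 3.13, 3.22 and 3.503. Gm3510, an intergenic long noncoding RNA at chromosome 5, 15923755 to 15933406 on the minus strand, was 77.1 ± 46.6 CPM against 1.20 ± 1.30 in Sst nuclei and had 1 and 2 UMIs in Pvalb and Vip nuclei, ratios of 147 (26.2 to 5804) and 87.2 (24.0 to 722). It neighbours Cacna2d1, which starts at 15934691 on the plus strand.

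**Figure D1:**
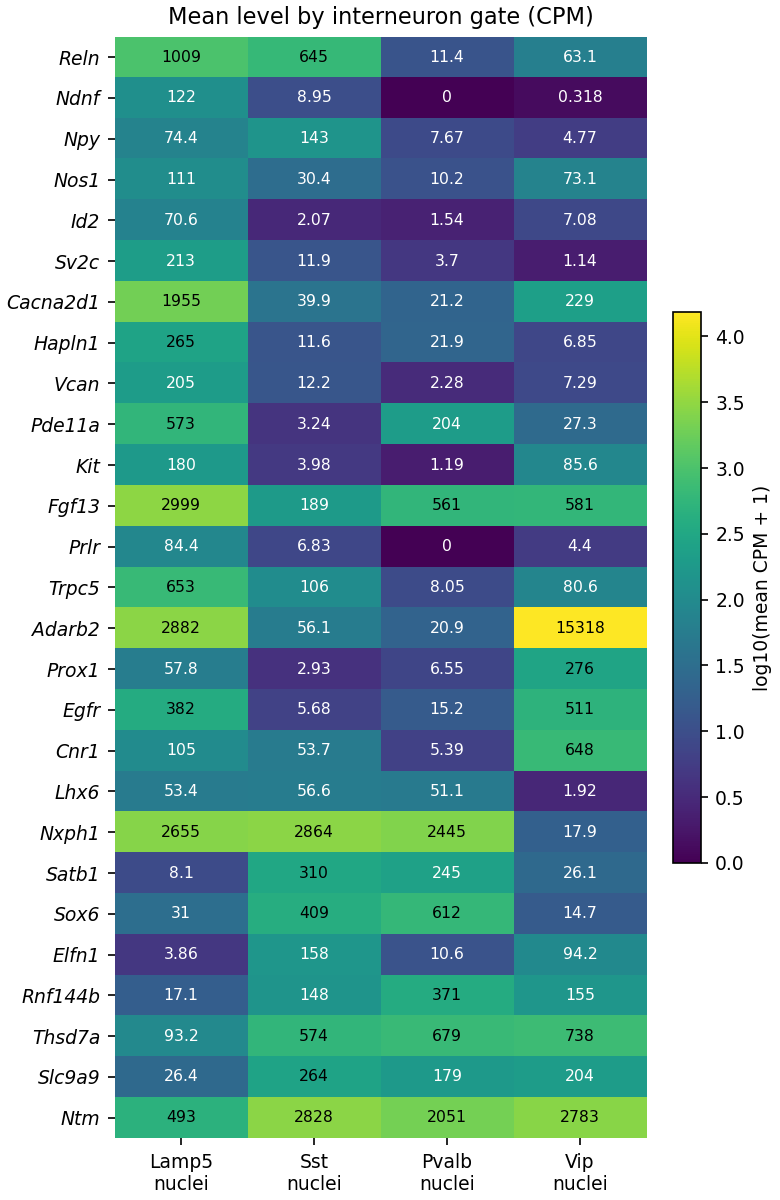
Mean CPM over libraries of genes (rows) in the 4 interneuron types (columns), with the value printed in each cell and the colour on a log10(mean CPM + 1) scale. Cacna2d1, Hapln1, Sv2c and Id2 stand out in the Lamp5 column, Adarb2 lies between Vip and the other types, and Satb1 and Sox6 are lower in Lamp5 than in Sst and Pvalb nuclei.

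The 214 genes lower than in all 3 other types were ranked likewise, given a mean of 10 or more UMIs per library in each other type. The 8 with the largest smallest difference were 6330576A10Rik, Rnf144b, Slc9a9, Thsd7a, Gpc6, Pcdh7, Olfm3 and Ntm. For these picked genes too a lack of overlap is a description. Rnf144b, an E3 ubiquitin ligase, was 17.1 ± 8.82 CPM against 148 ± 36.5, 371 ± 65.6 and 155 ± 58.7 in Sst, Pvalb and Vip nuclei, with no overlap between libraries. Slc9a9, an endosomal sodium-proton exchanger, was lower, with log2 fold changes of -3.25, -2.70 and -2.88, and Thsd7a, a thrombospondin-repeat protein, of -2.60, -2.90 and -2.98. Ntm, the adhesion protein neurotrimin, was 493 ± 152 CPM against 2828 ± 332, 2051 ± 487 and 2783 ± 669.7, again with no overlap. The glypican Gpc6 (-2.90, -2.18 and -2.47), the protocadherin Pcdh7 (-2.11, -2.04 and -2.15) and the olfactomedin Olfm3 (-4.08, -2.02 and -2.40) were lower in the same way. The noncoding RNA 6330576A10Rik was 5.07 ± 4.21 CPM against 65.6 ± 13.7, 139 ± 57.2 and 84.9 ± 33.2.

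Of 8 caudal-lineage genes tested, 5 were higher and 2 lower than in Sst nuclei and 6 higher and 1 lower than in Pvalb nuclei, both medial-lineage types, but all 8 were lower than in Vip nuclei, a caudal-lineage type. Adarb2, an RNA-binding protein that serves as the main caudal-lineage marker, ranged from 1826 to 4303 CPM in Lamp5 nuclei. It reached at most 387 in Sst and 119.6 in Pvalb nuclei and was at least 12169 in every Vip library, so the 3 levels did not overlap. Prox1, a homeobox factor of caudal-lineage interneurons, had log2 fold changes of 4.08 (SE 0.25), 3.66 (SE 0.45) and -2.27 (SE 0.16) against Sst, Pvalb and Vip nuclei. The epidermal growth factor receptor gene Egfr had 6.13 (SE 0.20), 4.49 (SE 0.27) and -0.45 (SE 0.13), the last call being lost under other settings. Cnr1, the cannabinoid receptor, was 105 ± 20.5 CPM in Lamp5 and 648 ± 145 in Vip nuclei. Npas3, a basic helix-loop-helix factor, was lower in Lamp5 nuclei than in all 3 types, with log2 fold changes of -2.67, -0.63 and -3.70.

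Of 7 medial-lineage genes tested, 0 were higher and 4 lower than in Sst nuclei, 1 higher and 4 lower than in Pvalb nuclei, and 3 higher and 2 lower than in Vip nuclei. Lhx6, the LIM-homeobox factor of that lineage, was 53.4 ± 18.2 CPM in Lamp5, 56.6 ± 12.03 in Sst and 51.1 ± 24.5 in Pvalb nuclei. Neither difference passed the test (log2 fold changes -0.08 ± 0.11 SE and 0.17 ± 0.18 SE), whereas Lhx6 was 5.10 (SE 0.38) above Vip nuclei. Nxph1, a neurexin ligand, followed the same pattern, at 2655 ± 339.8 CPM in Lamp5 and 17.9 ± 22.6 in Vip nuclei. The chromatin organizer Satb1 was 8.10 ± 4.14 CPM against 309.7 ± 43.3 in Sst and 245 ± 57.8 in Pvalb nuclei, log2 fold changes of -5.20 (SE 0.14) and -4.83 (SE 0.17). Sox6, its partner in that programme, was likewise lower, with log2 fold changes of -3.66 (SE 0.18) and -4.16 (SE 0.20). Elfn1, a synaptic adhesion protein of Sst cells, was lower, with log2 fold changes of -5.21 (SE 0.22), -1.40 (SE 0.56) and -4.55 (SE 0.29), the call against Pvalb nuclei being lost under other settings.

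All 14 GABA receptor subunit genes were tested. Against Sst nuclei 10 were higher and 2 lower, against Pvalb nuclei 10 higher and 3 lower, and against Vip nuclei 8 higher and 2 lower, with median log2 fold changes of 0.98, 0.62 and 0.59. Gabbr2, the signalling subunit of the metabotropic GABA-B receptor, ranged from 590.3 to 887 CPM (median 663). Its log2 fold changes were 1.49 (SE 0.07), 0.77 (SE 0.09) and 1.78 (SE 0.09), whereas its partner subunit Gabbr1 differed only from Pvalb nuclei (0.34 ± 0.11 SE), a call lost under other settings. Gabra5, a subunit of extrasynaptic receptors, was 86.01 ± 16.2 CPM against 14.1 ± 5.35, 37.1 ± 20.8 and 22.3 ± 19.3 in Sst, Pvalb and Vip nuclei.

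Gabrd, the delta subunit of extrasynaptic receptors, was 32.03 ± 12.1 CPM, above Sst and Vip nuclei (2.46 ± 0.20 SE and 4.30 ± 0.47 SE) and below Pvalb nuclei (-1.10 ± 0.20 SE). Gabrg3, a gamma subunit, was 3619 ± 520.3 CPM against 559 ± 133, 2546 ± 461 and 1178 ± 228, and Gabrb2, a beta subunit, was higher than in all 3 types by 1.68, 0.66 and 1.01. Gabra3 was the subunit lower in all 3 comparisons, with log2 fold changes of -1.04, -0.71 and -0.498, the last call being lost under other settings. Of 10 GABA synthesis, transport and release genes tested, 3 were higher and 4 lower than in Sst, 5 and 3 than in Pvalb, and 4 and 4 than in Vip nuclei. Slc32a1, the vesicular GABA transporter, was lower, with log2 fold changes of -0.48 (SE 0.10), -0.62 (SE 0.14) and -0.55 (SE 0.13).

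**Figure D2:**
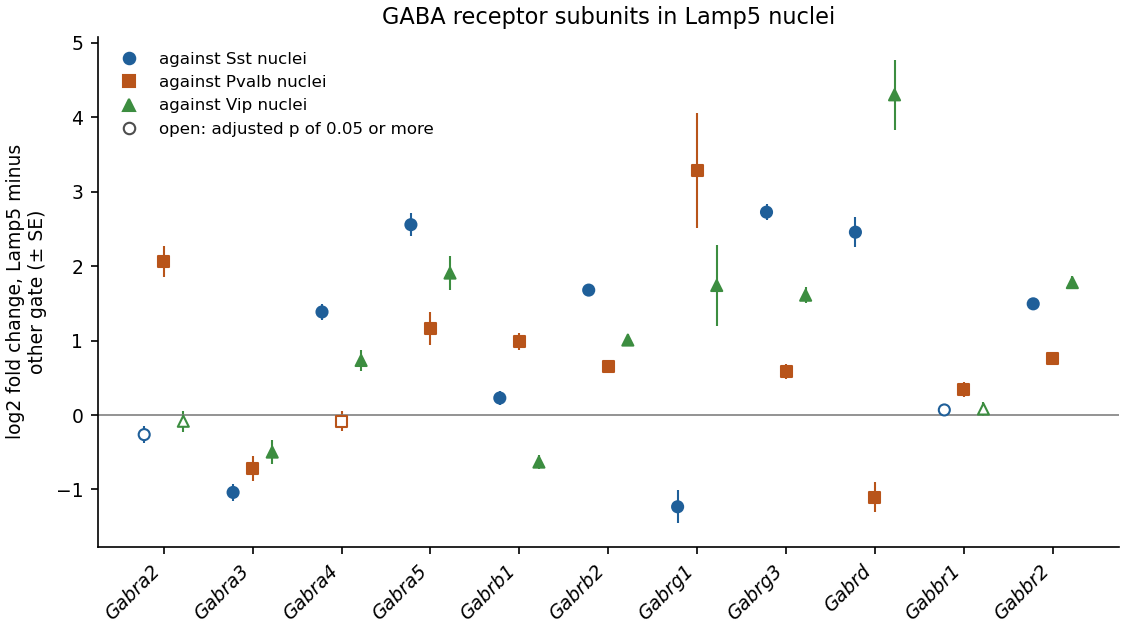
Log2 fold change (Lamp5 minus the other type, bars ± SE) of GABA receptor subunit genes against Sst, Pvalb and Vip nuclei, with open symbols for an adjusted p of 0.05 or more. Gabbr2, Gabra5, Gabrb2 and Gabrg3 lie above 0 past the threshold in all 3 comparisons and Gabra3 below 0 in all 3, while Gabrd, Gabrg1 and Gabrb1 change sign between comparisons. The Gabra3 call against Vip nuclei was lost under other settings.

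Glutamate receptor genes differed in both directions. Of 18 tested, 4 were higher and 12 lower than in Sst nuclei, 7 and 5 than in Pvalb nuclei, and 7 and 7 than in Vip nuclei, with medians of -0.39, -0.06 and -0.15. Grin2a, the GluN2A subunit of NMDA receptors, was 3046 ± 282 CPM against 1184 ± 190.1, 512 ± 416 and 358 ± 204, log2 fold changes of 1.40 (SE 0.18), 2.93 (SE 0.21) and 3.19 (SE 0.21). Grin2b, the GluN2B subunit, was lower in the same comparisons, with log2 fold changes of -0.19 (SE 0.06), -0.32 (SE 0.07) and -0.94 (SE 0.07). Gria2, the AMPA subunit that limits calcium entry, was also lower, with log2 fold changes of -0.39 (SE 0.07), -0.33 (SE 0.07) and -0.67 (SE 0.07). The calls of Grin2b and Gria2 against Pvalb nuclei were lost under other settings. Gria3 was 323 ± 69.5 CPM, below Sst and Pvalb nuclei (-1.75 and -1.97) and above Vip nuclei (2.26). Among metabotropic receptors Grm7 was 281 ± 114 CPM in Lamp5 nuclei against 1438 ± 163 in Sst and 2621 ± 559 in Vip nuclei.

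Of 19 potassium channel genes tested, 10 were higher and 6 lower than in Sst nuclei, 8 and 8 than in Pvalb nuclei, and 7 and 7 than in Vip nuclei. Kcnh7, a member of the erg family, was 1557 ± 264 CPM and higher by 2.48 (SE 0.14), 1.08 (SE 0.14) and 2.23 (SE 0.15). Kcnn2, a small-conductance calcium-activated channel, was higher by 2.45 (SE 0.09), 2.08 (SE 0.11) and 0.25 (SE 0.09), the last call being lost under other settings. Kcnj6, a channel opened by GABA-B and other G-protein-coupled receptors, was higher by 1.44 (SE 0.11), 0.41 (SE 0.14) and 0.57 (SE 0.13). Kcnc2, the Kv3.2 channel of fast-spiking cells, was 558 ± 94.8 CPM against 2256 ± 232, 2819.7 ± 603 and 1109.9 ± 282, with log2 fold changes of -2.001, -2.27 and -0.99. Kcnc1 and Kcna1, further channels of fast-spiking cells, were below Pvalb nuclei (-1.41 and -1.84) and above Sst nuclei (0.49 and 0.31), the last call being lost under other settings.

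Of 30 neuregulin, neurexin and guidance genes, all tested, 9 were higher and 12 lower than in Sst nuclei, 9 and 13 than in Pvalb nuclei, and 13 and 10 than in Vip nuclei. Erbb4, the neuregulin receptor of many interneurons, was 9768 ± 1337 CPM against 1664 ± 465 in Sst nuclei (2.61 ± 0.09 SE), and did not pass the test against Pvalb and Vip nuclei (-0.06 ± 0.09 SE and 0.06 ± 0.09 SE). Unc5c, a netrin receptor, was 2713 ± 1112 CPM against 683 ± 154, 417 ± 138 and 359.5 ± 206, log2 fold changes of 1.93 (SE 0.15), 2.78 (SE 0.17) and 2.89 (SE 0.16). These means pool Tau+ and Tau- libraries, between which Unc5c differed in Lamp5 nuclei as given below. Sema5a, a semaphorin, was higher by 3.80, 4.46 and 0.92, Tenm1, a teneurin, by 1.91, 1.65 and 1.38, and Nlgn1, a neuroligin, by 0.93, 1.36 and 0.73. Nrxn3, a presynaptic neurexin, was lower in all 3, with log2 fold changes of -1.62 (SE 0.07), -0.99 (SE 0.07) and -1.87 (SE 0.07), as were the cadherins Cdh4 and Cdh13. The call of Cdh13 against Vip nuclei was lost under other settings.

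Of 12 heat-shock chaperone genes tested none was higher, and 7, 6 and 5 were lower than in Sst, Pvalb and Vip nuclei. Hsph1, a large chaperone of the heat-shock 110 class, was 16.1 ± 9.33 CPM against 27.2 ± 12.8, 33.4 ± 20.9 and 30.3 ± 17.9 and was lower, with log2 fold changes of -0.66 (SE 0.17), -0.997 (SE 0.24) and -0.91 (SE 0.23). Markers of glia also moved between types. Of the 3 oligodendrocyte markers tested 1, 3 and 0 were higher than in Sst, Pvalb and Vip nuclei, and the astrocyte transporter gene Slc1a2 was 0.83, 1.49 and -1.33. The part of the oligodendrocyte and astrocyte transcripts in these comparisons was not tested.

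The Lamp5 nuclei were split by their Lhx6 UMIs. Lhx6 had 2 or more UMIs in 97 nuclei (14.1%, 95% exact binomial interval 11.6 to 17.0%), 1 in 133 (19.4%) and none in 457 (66.5%). A nucleus with no Lhx6 UMI can still express Lhx6, so Lhx6-free means only that none was read. In oligodendrocyte nuclei 0.0801% had an Lhx6 UMI. Adarb2 had 2 or more UMIs in 44 of the 97 Lhx6-containing nuclei (45.4%, interval 35.2 to 55.8%) and in 342 of the 457 Lhx6-free nuclei (74.8%, 70.6 to 78.8%). These intervals cover counting error only. In the 8 libraries with 5 or more nuclei on both sides, 71 Lhx6-containing nuclei (2 or more UMIs) were compared with 221 Lhx6-free nuclei (no UMI), over 3282 genes other than Lhx6 and the genes of the gate. Library medians were 7560 to 20347.5 UMIs on the Lhx6-containing side and 7182 to 11341 on the other, and the part of this depth gap in the split was not tested. By edgeR with library as a term 7.25% of genes differed, 129 higher (3.93%) and 109 lower (3.32%) in Lhx6-containing nuclei.

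Neurogliaform and ivy markers divided between the sides: of 12 tested, 4 were higher (Eya4, Nos1, Hapln1 and Id2) and 4 lower (Kit, Ndnf, Reln and Npy) in Lhx6-containing nuclei. The calls of Id2 and, with 1 library left out (Ch25h-/- Tau+ replicate 2, adjusted p = 0.0514), Eya4 were lost under other settings. Nos1 ranged from 119.6 to 272 CPM in Lhx6-containing and from 51.8 to 94.2 in Lhx6-free nuclei, so the sides did not overlap, a log2 fold change of 1.28 (SE 0.19) with the same direction in 8 of 8 libraries. Ndnf ranged from 0 to 63.7 CPM against 71.9 to 319, a log2 fold change of -3.36 (SE 0.49), and was lower in Lhx6-containing nuclei in all 8 libraries. Kit had the largest difference named, from 0 to 27.1 CPM against 191 to 478, a log2 fold change of -4.57 (SE 0.34). Reln was 576 ± 292 CPM against 1362 ± 487 (n = 8 libraries; -1.24 ± 0.16 SE), lower in 8 of 8 libraries with overlapping ranges. Npy was 41.8 ± 26.01 against 79.6 ± 25.6 (-0.997 ± 0.30 SE), a call lost under other settings. Sv2c and Cacna2d1 did not pass the test (-1.09 ± 0.30 SE, adjusted p = 0.0527, and 0.37 ± 0.12 SE, adjusted p = 0.0562), nor did Fgf13 (0.10 ± 0.16 SE).

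Of 5 caudal-lineage genes tested 3 were lower in Lhx6-containing nuclei and none higher: Npas3 (-2.94 ± 0.24 SE), Cnr1 (-1.56 ± 0.26 SE) and Egfr (-1.11 ± 0.19 SE). Adarb2 itself, at 927 ± 747 against 3949.6 ± 1271 CPM, was lower in 8 of 8 libraries but missed the threshold (log2 fold change -2.31 ± 0.55 SE, adjusted p = 0.0505). Of the 2 medial-lineage genes tested Maf rose by 0.55 (SE 0.16), a call lost under other settings, and Nxph1 did not pass (0.23 ± 0.12 SE).

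Cntnap4, a contactin-associated synaptic protein, was 1191 ± 186 CPM in Lhx6-containing and 429.6 ± 154 in Lhx6-free nuclei (1.62 ± 0.16 SE), with ranges that did not overlap. Pard3b, a polarity protein, was 355 ± 128 against 129 ± 66.5 CPM (1.58 ± 0.16 SE). Amot, an angiomotin (1.49), Plxdc2, a transmembrane plexin-domain protein (1.44), the receptor phosphatase Ptprt (1.41) and Pappa, a protease of growth factor binding proteins (1.46), were also higher, the call of Pappa being lost under other settings. Gm42303 (1.64 ± 0.21 SE) lies at chromosome 4, 76451231 to 76490113 on the plus strand and is annotated as antisense, so its level is uncertain where strand is not stated.

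Lower in Lhx6-containing nuclei were Sema3e, a secreted semaphorin, at 12.2 ± 10.9 against 149 ± 45.3 CPM (-3.37 ± 0.33 SE), Parm1, a mucin-like membrane protein (-3.49 ± 0.35 SE), and Cep112, a centrosomal protein, at 21.5 ± 16.6 against 181 ± 39.2 CPM (-3.13 ± 0.28 SE). Ntng1, a netrin-G, was lower too (-3.14 ± 0.63 SE), a call lost under other settings. Of 26 adhesion and guidance genes tested, 8 were higher and 3 lower. Tenm1 was 2382 ± 406 against 1062 ± 158 CPM (1.24 ± 0.13 SE), Cdh9 rose by 1.36 (SE 0.20), and the Slit receptor gene Robo1 was 727 ± 366 against 1813 ± 274 CPM (-1.34 ± 0.17 SE). Of 12 GABA receptor subunits 3 were higher, Gabrg3 among them, and Gabra4 was lower (-0.99 ± 0.23 SE). Of 15 glutamate receptor genes Gria1 passed, at 3605 ± 702 against 1973 ± 483 CPM (0.97 ± 0.13 SE). Of 17 potassium channel genes Kcnmb2, a calcium-activated channel subunit, was higher (0.84 ± 0.13 SE) and Kcnq5 lower (-0.79 ± 0.16 SE). In this split 7.25% of all genes tested passed, so 1 of 15 glutamate receptor genes is near that share and no trait of the family.

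**Figure D3:**
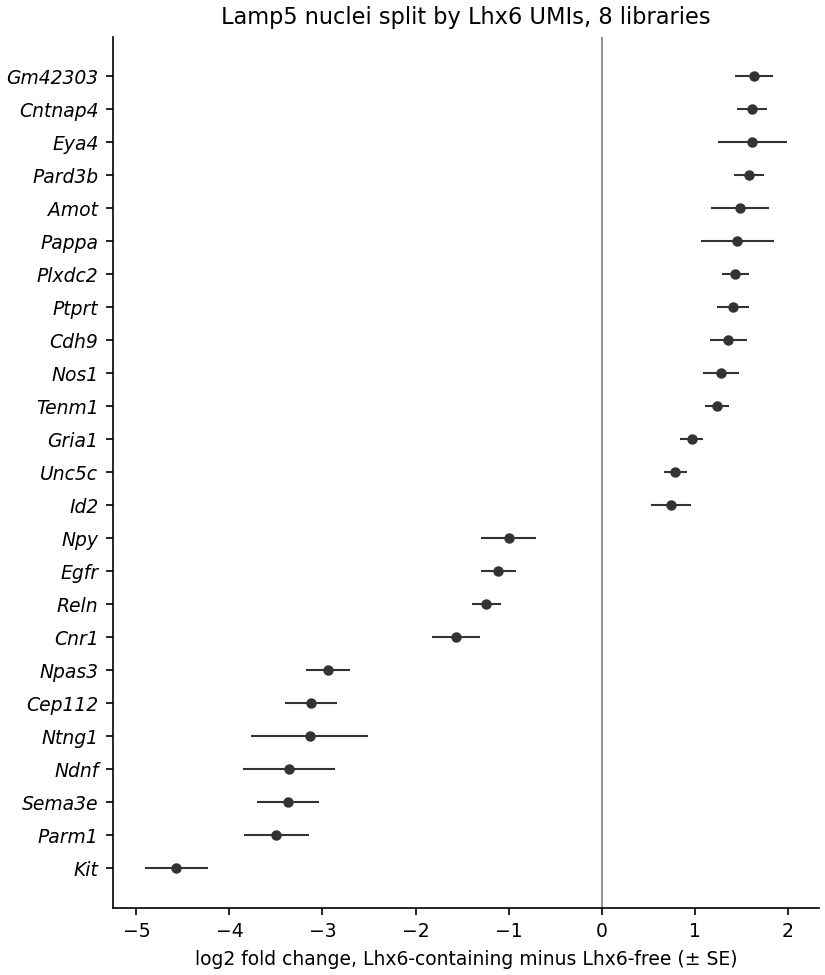
Log2 fold change (bars ± SE) between Lamp5 nuclei with 2 or more Lhx6 UMIs and those with none, over 8 libraries, for 25 genes past the threshold. Cntnap4, Pard3b and Nos1 lie to the right (higher with Lhx6) and Kit, Parm1, Sema3e and Ndnf farthest to the left.

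The genotype comparisons used the Lamp5 sums of all 16 libraries and 7374 genes, on a CPM scale with TMM normalization. A tau effect here means a difference between Tau+ and Tau- libraries. The design cannot tell tau apart from anything else inherited with the Tau+ label, and the source of a difference was not tested. The targeted gene could not check the labels here: Ch25h had 2 UMIs in all Lamp5 nuclei, both in Ch25h-/- libraries. By edgeR 2 genes (0.0271%) differed between Tau+ and Tau- libraries in Ch25h+/+ and 3 genes (0.0407%) in Ch25h-/-. In Ch25h+/+ 1 gene rose and 1 fell (0.0136% each), and in Ch25h-/- 2 rose (0.0271%) and 1 fell (0.0136%). They were the noncoding RNA Gm43049 and Unc5c in both genotypes and Prnp in Ch25h-/-.

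Gm43049, an intergenic long noncoding RNA (chromosome 3, 140692038 to 140760704, minus strand), was 79.9, 78.6, 68.9 and 63.1 CPM in the Ch25h+/+ Tau+ libraries and 0, 0, 0 and 2.44 in the Ch25h+/+ Tau- libraries. Without Ch25h it was 89.9, 47.0, 73.1 and 58.0 CPM in Tau+ and 5.26, 0, 0 and 0 in Tau- libraries. It was thus read in every Tau+ library and nearly absent from Tau- libraries in both genotypes. The counts were 139 against 1 UMI (ratio 95.9, counting interval 16.9 to 3816) and 134 against 2 (59.9, 16.3 to 499.5), with adjusted p of 2.23e-07 and 6.58e-08. Gm32754, another noncoding RNA farther along (140904998 to 140917459), was too low to test, with 17 against 0 UMIs in Ch25h+/+ (at least 3.91-fold) and 19 against 0 in Ch25h-/- (at least 5.66-fold).

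Unc5c (chromosome 3, 141465216 to 141834924, plus strand) was 1894, 1372, 1707 and 1652 CPM in the Ch25h+/+ Tau+ libraries and 3318, 3336, 4832 and 3617 in the Ch25h+/+ Tau- libraries. In Ch25h-/- it was 1754, 1565, 1710.0 and 2001 CPM with Tau+ and 3067, 3398, 3954 and 4320 with Tau-. Every Tau+ library lay below every Tau- library. The log2 fold changes were -1.19 (SE 0.14) in Ch25h+/+ (adjusted p = 1.21e-05) and -1.07 (SE 0.14) in Ch25h-/- (adjusted p = 9.54e-05). Pdlim5, the next listed gene on that chromosome with enough counts (142239590 to 142395696), did not pass the test, with log2 fold changes of 0.16 (SE 0.30) and -0.36 (SE 0.27).

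Prnp, the prion protein gene (chromosome 2, 131909928 to 131938429), was 89.0, 70.8, 71.3 and 110.0 CPM in the Ch25h+/+ Tau+ libraries and 39.9, 28.6, 60.6 and 41.5 in the Ch25h+/+ Tau- libraries. In Ch25h-/- it was 87.6, 89.3, 117 and 104 CPM with Tau+ and 28.9, 48.8, 51.8 and 48.9 with Tau-. The Tau+ and Tau- libraries did not overlap in either genotype. The log2 fold change was 1.13 (SE 0.22) in Ch25h-/- (adjusted p = 0.0412) and 0.99 (SE 0.24) in Ch25h+/+, which did not pass (adjusted p = 0.432). The Ch25h-/- call was lost under 13 of 25 alternatives, among them DESeq2 and leaving out 10 of the 16 libraries in turn, with adjusted p of up to 0.367 when 1 library was left out and of 0.934 in replicates 1 and 2 alone. Oligodendrocyte markers were lowest in the same Ch25h-/- Tau- group (summed 37.5 to 202 CPM, against 141 to 341 in Ch25h-/- Tau+), and their part in this result was not tested. The difference between the tau effects of the 2 genotypes did not pass for Prnp or any other gene. Mapt, the mouse tau gene, did not pass (-0.09 ± 0.14 SE and 0.22 ± 0.14 SE).

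**Figure D4:**
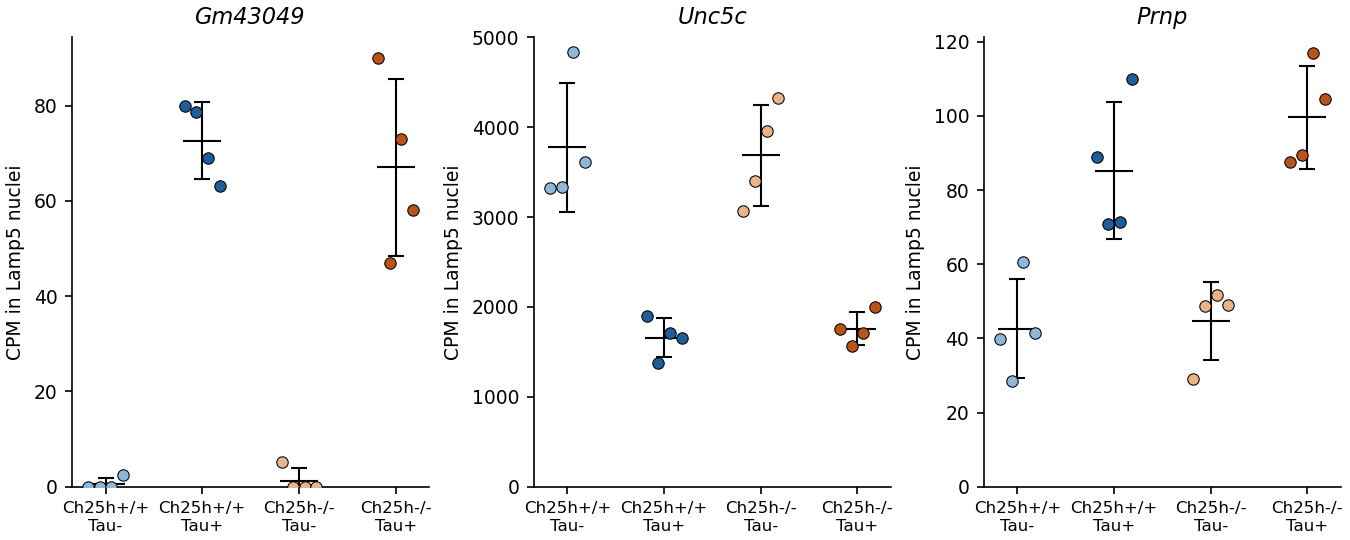
CPM of Gm43049, Unc5c and Prnp in the summed Lamp5 nuclei of each library (points, 4 per group), with the group mean and SD as bars. Gm43049 is at 47.0 CPM or more in Tau+ and at 5.26 or less in Tau- libraries, Unc5c is lower in every Tau+ library, and Prnp is at 70.8 or more in Tau+ and at 60.6 or less in Tau- libraries.

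The tau effects on Unc5c and Prnp are set beside those in Sst and Vip nuclei as a description with no test, since both genes were picked for their tau effect in Lamp5 nuclei. Values are plain CPM (mean ± SD, n = 4 libraries each). In Lamp5 nuclei Unc5c was 1673 ± 209.7 with Tau+ against 3745 ± 656 with Tau- in Ch25h+/+, and 1748 ± 152 against 3686 ± 559 in Ch25h-/-. In Sst nuclei it was 574 ± 96.3 against 725 ± 89.2 in Ch25h+/+ and 655 ± 59.6 against 777 ± 258 in Ch25h-/-, and libraries overlapped in both genotypes. In Vip nuclei it was 251 ± 60.2 against 334 ± 93.4 in Ch25h+/+, where libraries overlapped, and 218 ± 91.7 against 636 ± 213 in Ch25h-/-, where they did not. On log2(CPM + 1) over both genotypes the tau difference was -1.11 in Lamp5, -0.27 in Sst and -0.99 in Vip nuclei, and the Vip value pools unlike genotypes. Prnp in Lamp5 nuclei was 86.2 ± 18.9 with Tau+ against 42.3 ± 12.6 with Tau- in Ch25h+/+, and 99.1 ± 13.8 against 44.7 ± 10.7 in Ch25h-/-. In Sst nuclei it was 90.5 ± 13.7 against 46.2 ± 10.5 in Ch25h+/+ and 82.0 ± 5.41 against 58.1 ± 14.6 in Ch25h-/-, with no overlap in either genotype. In Vip nuclei it was 70.4 ± 18.4 against 76.9 ± 24.3 in Ch25h+/+, with overlap, and 136 ± 45.9 against 68.9 ± 16.4 in Ch25h-/-, with none. The direction of the Vip means thus differed between genotypes. Gm43049 was 101 ± 29.7 CPM in Sst and 63.7 ± 43.8 in Vip nuclei of Ch25h+/+ Tau+ libraries and 0 in those of every Tau- library.

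Of 15 neurogliaform and ivy markers tested, none passed in either tau comparison, with medians of -0.19 and 0.00. Reln was 968, 991, 623 and 662 CPM in the Ch25h+/+ Tau+ libraries and 1220.1, 1432, 1052 and 997 in the Ch25h+/+ Tau- libraries, which did not overlap. It was 1143, 650.3, 502 and 813 CPM with Tau+ and 1207, 1298, 1202 and 1389 with Tau- in Ch25h-/-, which did not overlap either. The log2 fold changes were -0.53 (SE 0.20) and -0.72 (SE 0.20), with unadjusted edgeR p of 0.0158 and 0.00191 and adjusted p of 0.832 or more. For comparison, 2.79% and 2.96% of all genes tested had Tau+ and Tau- libraries that did not overlap. Ndnf had 0.06 (SE 0.27) and -0.74 (SE 0.26), with no overlap in Ch25h-/- alone and no call.

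Loss of Ch25h changed no gene past the threshold in Lamp5 nuclei. By edgeR 0 of 7374 genes (0.0%) passed in Tau+ and 0 in Tau- libraries, with 257 and 292 genes at an unadjusted p under 0.05, and 0 passed for the difference between the tau effects, with 277. Each of these counts is a smaller share of the genes tested than the 0.05 that such a p gives with no effect. A smaller share does not show that there was no effect. DESeq2 called 0 genes in each of the 3 comparisons. Interferon-stimulated genes were scarce in Lamp5 nuclei: of 36 listed, 35 were in the files, 4 of those had no UMI and only Stat2, a signal transducer of the interferon receptor, could be tested. Stat2 was 24.3 ± 10.3 CPM (n = 16 libraries) and did not pass in any genotype comparison. Of 10 genes of the cGAS-STING pathway and interferon receptor, Tmem173, which encodes STING, had no UMI and the DNA sensor gene Cgas had 14. Its 5 members with enough counts (Tbk1, Irf3, Ifnar1, Jak1 and Tyk2) were not called in any genotype comparison.

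The number of Lamp5 nuclei did not differ between groups past the threshold. They were 9.05 ± 1.24% of GABAergic nuclei in Ch25h+/+ Tau+, 7.42 ± 1.49% in Ch25h+/+ Tau-, 9.57 ± 1.68% in Ch25h-/- Tau+ and 8.89 ± 1.55% in Ch25h-/- Tau- libraries (mean ± SD, n = 4 each), with overlap between all groups. Of all nuclei they were 0.476 ± 0.0612%, 0.386 ± 0.0599%, 0.518 ± 0.0918% and 0.499 ± 0.144% in the same order. The share of Lamp5 nuclei with 2 or more Lhx6 UMIs was 12.4 ± 7.49%, 10.3 ± 3.92%, 17.4 ± 7.79% and 14.3 ± 6.80%. Over the 18 exact 2-sided permutation tests of these 3 shares the lowest p was 0.114 (smallest possible 0.0286 for 4 against 4), and adjusted p values were 0.504 or more. The largest difference as a share of GABAergic nuclei was 1.63 percentage points, Tau+ above Tau- in Ch25h+/+ (exact p = 0.143). With Lamp5 of 3 or more UMIs the Tau+ minus Tau- difference was 1.81 points in Ch25h+/+, 1.41 in Ch25h-/- and 1.61 over both genotypes (exact permutation p = 0.0159, adjusted p = 0.195 for the last). Median depths of Lamp5 nuclei were 8387 to 11121 UMIs in the Ch25h+/+ Tau+ and 7384.5 to 8619 in the Ch25h+/+ Tau- libraries, and the part of depth in these shares was not tested beyond thinning.

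**Figure D5:**
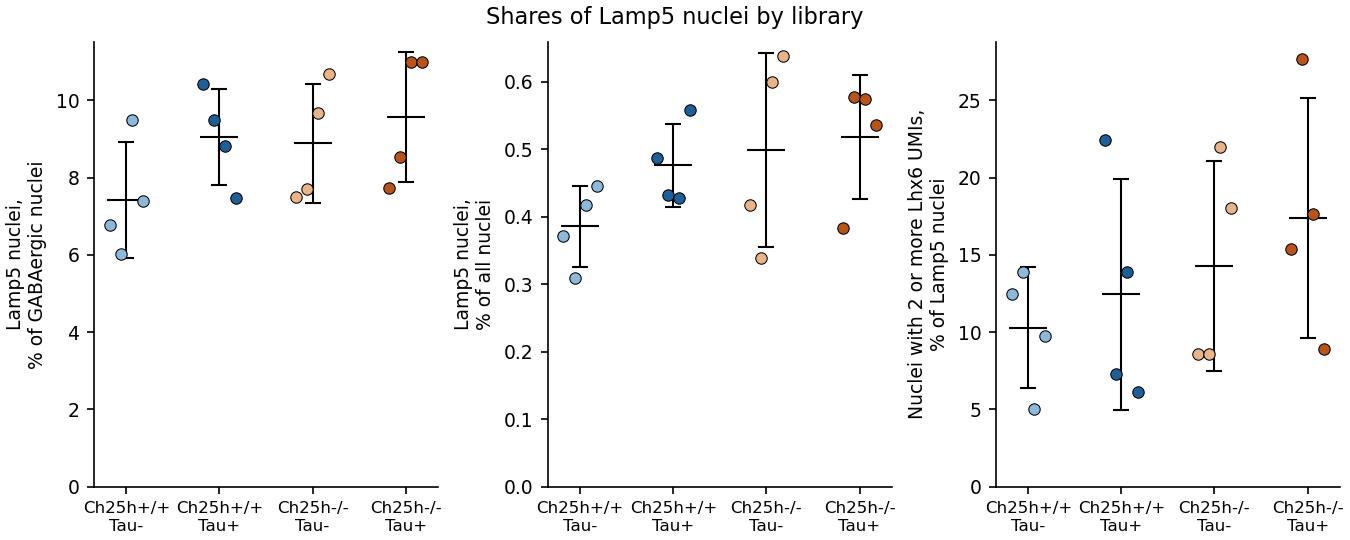
Lamp5 nuclei as a percentage of GABAergic nuclei and of all nuclei, and Lhx6-containing nuclei as a percentage of Lamp5 nuclei, per library (points, 4 per group) with the group mean and SD. The groups overlap in each panel; the nearest to apart are Ch25h+/+ Tau+ libraries, from 0.428% of all nuclei, and Ch25h+/+ Tau- libraries, up to 0.446%.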

How the data were processed

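Single-nucleus libraries were made with a 10x Genomics 3' kit, and the deposited matrices hold UMI counts per gene and barcode. Per the submitters' processing notes the authors used Cell Ranger 3.1.0, Seurat and the mm10 build, whereas the matrix headers name Cell Ranger 4. Whether introns and strand were counted is not given in the sources used here. Each gate, also applied to Sst, Pvalb and Vip nuclei, was read from the raw counts, and UMIs were summed per library and gate. Cells are not replicates, so libraries were compared. Sums were fitted with edgeR 4.0.16 (R 4.3.3; quasi-likelihood test, TMM, filterByExpr), with Benjamini-Hochberg adjustment over all genes tested and a threshold of 0.05. The SE of an edgeR log2 fold change was derived as its absolute value divided by the square root of the F statistic. DESeq2 1.42.0 and the settings of the closing section were alternatives. Shares were tested by exact permutation over libraries (SciPy 1.17.1). The edgeR fit was also run on simulated counts, where it missed part of the changes put in. A gene that did not pass may thus still differ. Levels are mean ± SD over libraries with 5 or more nuclei. Gate comparisons are in plain CPM and genotype levels in TMM-normalized CPM.

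Coordinates and biotypes are from GENCODE M21 (GRCm38), which held 32158 of the 32285 gene IDs in the files. Named genes are those of the lists, the genes called in the genotype comparisons, and those ranked by fold change among calls in the gate comparisons (12 higher and 8 lower in all 3) and the Lhx6 comparison (8 higher and 6 lower), with minimum mean UMIs of 10 and 3. In text, fold changes are log2 and a gene with 0 UMIs in another type is given as a bound and one with 1 to 3 as a ratio. The members, gene lists and tests were chosen with earlier results of these data known. Some genes of the lists enter the counts and are not reported here by name. Doublets were the nuclei with the highest Scrublet scores (scanpy 1.11.5), at the preset rate, and were kept in the main results. Pairs of libraries within a group differed by 8.42 to 65.2 in chi-square per degree of freedom.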

Additional observations from a re-analysis of the deposited data

Results flagged for a closer look

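Of 30 groups of 4 libraries examined, 1 held a library far from its 3 neighbours, and chance gives about 1 in 20. It was Prnp in the Ch25h-/- Tau- group, where replicate 1 was at 28.9 CPM and the others at 48.8, 51.8 and 48.9. Without that library the tau effect on Prnp in Ch25h-/- lost its call (log2 fold change 0.996, edgeR adjusted p = 0.283).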

How the results depend on the processing

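Gm43049 kept its tau effect under all 25 alternatives in both genotypes, and Unc5c under all but replicates 1 and 2 alone in Ch25h-/-. Of the genes named, 117 of 133 calls against Sst, 118 of 137 against Pvalb, 110 of 135 against Vip nuclei and 32 of 41 of the Lhx6 split held under every alternative and none reversed. Lost under 1 or more alternatives were, among others, Eya4, Kcna1, Gabrb1, Slc1a2 and Gm43049 against Sst, Elfn1, Gria2, Grin2b and Gabbr1 against Pvalb, Nos1, Egfr, Kcnn2, Cdh13, Gabra3, Cspg5, Cacna2d2 and Grin3a against Vip nuclei and, in the Lhx6 split, Maf, Npy, Id2, Ntng1, Pappa, Erbb4 and Eya4. DESeq2 called 2 genes in each tau comparison. With the library set (replicates 1 and 2 against 3 and 4) as a term, the tau calls were 2 and 3 and the other genotype comparisons gave 0.

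Without a filter on low counts the calls were 3728, 4116 and 2837 against Sst, Pvalb and Vip nuclei, 450 in the Lhx6 split, 21 for tau in Ch25h-/-, and 2 and 1 for Ch25h loss in Tau+ and Tau-. With Lhx6 of 1 or more UMIs the split gave 543. Replicates 3 and 4 alone gave 5 and 17 calls for tau in Ch25h+/+ and Ch25h-/-, 2 for Ch25h loss in Tau- and 1 for the difference between the tau effects. The cause was not tested. Leaving out 1 library in turn gave 2 to 6 calls for tau in Ch25h-/- (6 without Ch25h-/- Tau+ replicate 1), 2244 to 2353, 2354 to 2538 and 1739 to 1851 against Sst, Pvalb and Vip nuclei, and 181 to 251 in the Lhx6 split.

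No share passed after adjustment under any alternative. With Lamp5 of 3 or more UMIs the tau difference over both genotypes was 1.61 points of GABAergic and 0.0835 of all nuclei (exact permutation p = 0.0159 and 0.0216, adjusted p = 0.195 for both). Thinned to 2000 UMIs, which left 0 to 8 Lamp5 nuclei per library, the tau difference in Ch25h-/- was -0.492 percentage points of GABAergic and -0.0217 of all nuclei, and over both genotypes -0.00616 of all nuclei. Thinned to 6000 UMIs (added after seeing the data, 12 to 28 nuclei), the tau difference was 1.08 points of GABAergic nuclei in Ch25h+/+ and 1.80 in Ch25h-/-, and the Ch25h loss difference was -0.381 in Tau- and -0.0222 over both tau states of GABAergic nuclei, and -0.0570 in Tau+ and -0.0246 over both of all nuclei. Leaving out 1 library in turn gave -1.18 to 4.27 and -0.320 to 5.94 points for the Lhx6 share with tau in Ch25h+/+ and Ch25h-/-, -0.0145 to 1.12 for Ch25h loss in Tau+ of GABAergic nuclei and -0.0342 to 0.0657 for tau in Ch25h-/- of all nuclei. The Lamp5 minus Vip difference in the tau effect on Unc5c, -0.12 with all libraries, ran from -0.25 to 0.0279 in the same way. The Lamp5 minus Sst difference for Unc5c ran from -0.96 to -0.75. For Prnp the differences, 0.35 against Sst and 0.68 against Vip nuclei with all libraries, ran from 0.29 to 0.41 and from 0.55 to 0.81. The Vip values pool genotypes whose Prnp means differed in direction. Both genes were picked for their tau effect in Lamp5 nuclei, so these ranges are a description and add no support. Between genotype groups no paired analysis was possible, because the replicate numbers follow accession order and pair no libraries. The comparisons with other types and the Lhx6 split had library as a term. The share tests did not take the library set (replicates 1 and 2 against 3 and 4) into account. After thinning to 6000 UMIs the Lhx6 share, which was not tested, was 0 to 21.7% per library.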

Other observations

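Receptors for neuropeptide Y stood lower in Lamp5 than in Vip nuclei as values with no test: Npy1r ranged from 0 to 9.99 CPM against 18.9 to 96.1 over 16 libraries, Npy2r was 2.20 ± 2.89 against 46.99 ± 19.3 and Npy5r 4.76 ± 3.87 against 47.1 ± 30.7 (mean ± SD, n = 16 libraries). Tacr1, the receptor for substance P, was 48.6 ± 21.8 CPM in Lamp5 nuclei against 12.6 ± 11.3 in Sst, 1.45 ± 3.04 in Pvalb and 16.2 ± 23.1 in Vip nuclei. Genes listed as marks of other subtypes summed to 589.6 to 1239 CPM per library in Lamp5 nuclei, led by Kcnc2 at 558 ± 94.8 CPM, and varied by gene. The calretinin gene Calb2 was 0.242 ± 0.676 CPM against 49.7 ± 25.1 in Vip nuclei, and the peptide gene Penk, enkephalin, was 1.14 ± 1.77 against 84.99 ± 35.4 (log2 fold change -5.87 ± 0.35 SE, edgeR adjusted p = 1.80e-25). Syt2, a fast vesicle calcium sensor of Pvalb terminals, was 3.44 ± 3.29 CPM against 206 ± 50.8 in Pvalb nuclei (log2 fold change -5.67 ± 0.26 SE, edgeR adjusted p = 5.32e-30). Meis2, a homeobox factor, was 91.4 ± 75.3 CPM and above all 3 types (1.42 ± 0.30 SE, 4.02 ± 0.78 SE and 2.93 ± 0.58 SE against Sst, Pvalb and Vip nuclei), with a wide spread between libraries, from 0 to 244 CPM.

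Pdlim5, a PDZ and LIM domain protein on chromosome 3, was 67.4 ± 20.1 CPM in Lamp5 nuclei, higher than in all 3 types (3.55 ± 0.21 SE, 5.16 ± 0.51 SE and 2.09 ± 0.28 SE).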
